A study of Mus musculus with 4 samples.

Results

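Interleukin-1, TNF and the genes that hold NF-kB signalling in check were followed here through the cells of the hippocampus (HPC) of the Dp(10)2Yey mouse. The group holds 8 of the 31055 genes in the feature tables, found by gene symbol: Il1a, Il1b, Tnf, Il1rn, Nlrp3, Nfkbia, Nfkbiz and Tnfaip3. It was selected on the Il1b counts summed over all cells, which were higher in both Dp(10)2Yey libraries than in both WT libraries. The contrast in all cells summed is therefore described below without a test of these genes. Single-cell RNA sequencing was done on Dp(10)2Yey mice, a Down syndrome model with an internal duplication of the segment of mouse chromosome 10 from Prmt2 to Pdxk. It compared male Dp(10)2Yey mice with male WT littermates, all 3 months old and on a C57BL/6J background, with 1 library per mouse and 2 mice of each genotype. Cells were prepared on 2 consecutive days with 1 mouse of each genotype a day, and it is not stated how the replicate numbers map onto the days. Of 6464 barcodes, 6242 were kept, and 8 barcode sequences occurred in 2 libraries. Kept barcodes held 2917039 and 6721578 UMIs in the WT libraries and 5008065 and 8837815 in the Dp(10)2Yey libraries, so WT replicate 1 was the shallowest. Levels are given as UMI counts-per-million (CPM), of the class or, for sums of all cells, of the library. Values of single libraries are given in this order throughout, replicate 1 before replicate 2 and WT before Dp(10)2Yey.

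Interleukin-1 alpha, interleukin-1 beta and TNF are inflammatory cytokines that microglia and infiltrating myeloid cells release, and their receptors switch on the transcription factor NF-kB. Interleukin-1 beta is made as an inactive precursor that caspase-1 cleaves on inflammasomes such as the one built by NLRP3, and the receptor antagonist encoded by Il1rn blocks both forms of interleukin-1. NF-kB in turn induces its own brakes, among them Nfkbia (IkB-alpha, which keeps NF-kB in the cytoplasm), Tnfaip3 (A20, a ubiquitin-editing enzyme) and Nfkbiz (IkB-zeta, a nuclear IkB protein that restrains some targets and helps to induce others).

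None of the 8 genes lies inside the duplicated segment, which spans 2.258 Mb in GRCm38. Tnfaip3 is the only one on the same chromosome, 57.19 Mb away, and Il1a and Il1b are neighbours on chromosome 2, 54.6 kb apart. Upstream sequence of RefSeq (GRCm38.p6) was available for 7 of the 8 genes, in 11 windows of 250 bases that end at a transcript start. It was searched on both strands for the NF-kB (kB) consensus of 10 letters and for the AP-1 motif TGANTCA. A kB match was present upstream of Nlrp3, Nfkbia and Tnfaip3, and in 7.25% of the 32851 windows of all genes. An AP-1 match was present upstream of Il1a, Il1rn and Tnfaip3, against 6.75% of all windows. For both motifs a member was named if any of its windows matched, whereas the percentages count single windows. The windows of Nfkbia, the feedback gene with the most UMIs below, of Nlrp3 and of Il1b itself are printed 5' to 3' on the strand of the gene, with kB matches in capitals. They are chr12:55492648-55492897 (minus strand) for Nfkbia, chr11:59541319-59541568 (plus strand) for Nlrp3 and chr2:129371140-129371389 (minus strand) for Il1b.
Nfkbia: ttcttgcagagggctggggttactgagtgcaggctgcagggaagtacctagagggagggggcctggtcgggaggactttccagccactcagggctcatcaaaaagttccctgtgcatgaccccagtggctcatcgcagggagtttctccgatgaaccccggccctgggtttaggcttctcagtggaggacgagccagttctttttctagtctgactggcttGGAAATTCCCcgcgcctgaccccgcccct
Nlrp3: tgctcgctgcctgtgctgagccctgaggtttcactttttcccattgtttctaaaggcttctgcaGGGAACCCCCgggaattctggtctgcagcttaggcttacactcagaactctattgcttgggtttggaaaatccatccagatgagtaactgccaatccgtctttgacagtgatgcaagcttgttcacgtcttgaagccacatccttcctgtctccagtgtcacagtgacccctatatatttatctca
Il1b: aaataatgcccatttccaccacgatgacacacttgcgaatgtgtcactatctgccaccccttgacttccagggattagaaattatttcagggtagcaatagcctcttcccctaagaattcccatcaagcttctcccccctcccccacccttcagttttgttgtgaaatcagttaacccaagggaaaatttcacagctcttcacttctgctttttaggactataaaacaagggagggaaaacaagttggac
Read as printed, the match of Nfkbia ended 20 bases before the start and that of Nlrp3 ended 177 bases before it. These letters do not occur in the Il1b window. Tnfaip3 had 2 matches, but nearly all of its window lies inside the gene as GENCODE draws it, so it is not printed.

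All 8 genes had most of their UMIs in the microglia-like cluster, named from 4 markers among its 10 leading genes (Cx3cr1, P2ry12, Gpr34 and Tmem119). This cluster held 311 and 538 cells in WT and 373 and 784 in Dp(10)2Yey. It contained 97.6% of the 5689 Il1a UMIs, 96.6% of the 2734 Tnf UMIs and 94.8% of the 1513 Nlrp3 UMIs. Of the feedback genes, it contained 88.7% of the 14206 Nfkbia UMIs, 94.6% of the 9348 Nfkbiz UMIs and 95.1% of the 3306 Tnfaip3 UMIs. Among the genes other than Il1rn, Il1b stood apart in this respect, since 67.5% of its 1155 UMIs lay in microglia-like cells. Il1a was also among the 10 leading genes of the cluster, although all 8 genes were left out of the genes used for clustering. Il1rn was hardly detected, with 9 UMIs in 7 barcodes (55.6% of the UMIs in microglia-like cells), and 6 of these barcodes also held Il1b.

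Across cell classes the 8 genes followed different orders. For Il1b the highest level was in barcodes rich in neutrophil markers (mean 7486 CPM of the class, SD 6255 over the 3 libraries that had them). A sub-cluster led by Ccl7, Pf4 and Mrc1 came next (530.0 ± 108, SD, n = 4 libraries), then microglia-like cells (88.2 ± 16.2). The border-macrophage-like sub-cluster (45.4 ± 52.6) and all classes after it did not differ from their neighbours beyond the spread over libraries. Microglia-like cells had the highest mean of Il1a (649.8 ± 58.2), well above the next class, and of Tnf (298 ± 46.3), where the Ccl7-led sub-cluster overlapped with it (169 ± 119). Nfkbiz was 1080 ± 141 in microglia-like cells and 930 ± 424 in the Ccl7-led sub-cluster, which do not differ beyond their spread. Nlrp3 was highest in the neutrophil-marker barcodes (477 ± 189.9), followed by microglia-like cells (166 ± 14.1) and the Ccl7-led sub-cluster (135 ± 42.4), whose ranges overlapped. Tnfaip3 was 387 ± 61.7 in microglia-like cells and 335 ± 153 in T- and NK-like cells, of which there were only 22.

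Nfkbia was also high outside myeloid cells. Its level was 1469 ± 25.9 CPM in microglia-like cells, 1284 ± 1586 in the neutrophil-marker barcodes, 674 ± 389 in the Ccl7-led sub-cluster and 521 ± 112 in endothelial-like cells. The neutrophil-marker barcodes ranged from 208 to 3106 CPM over libraries and overlapped with each of the others. The Ccl7-led sub-cluster and endothelial-like cells overlapped as well. The endothelial level was 28.2% to 42.6% of the microglial level, library by library, whereas the summed microglia markers there were 0.291% to 2.92% of theirs. In oligodendrocyte-like cells Nfkbia was 57.4 ± 9.73 CPM and in astrocyte-like cells 52.7 ± 18.9, an order of magnitude below. The opposite picture was found in a cluster of 565 barcodes of low RNA content (median 800.0 UMIs) led by Ppbp. Its microglia markers stood at 89.3% to 101% of the microglial level, but Nfkbia was at 0.521% to 1.85% and Il1a at 3.16% to 6.50% of it. Il1b had no UMI in that cluster.

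**Figure D1:**
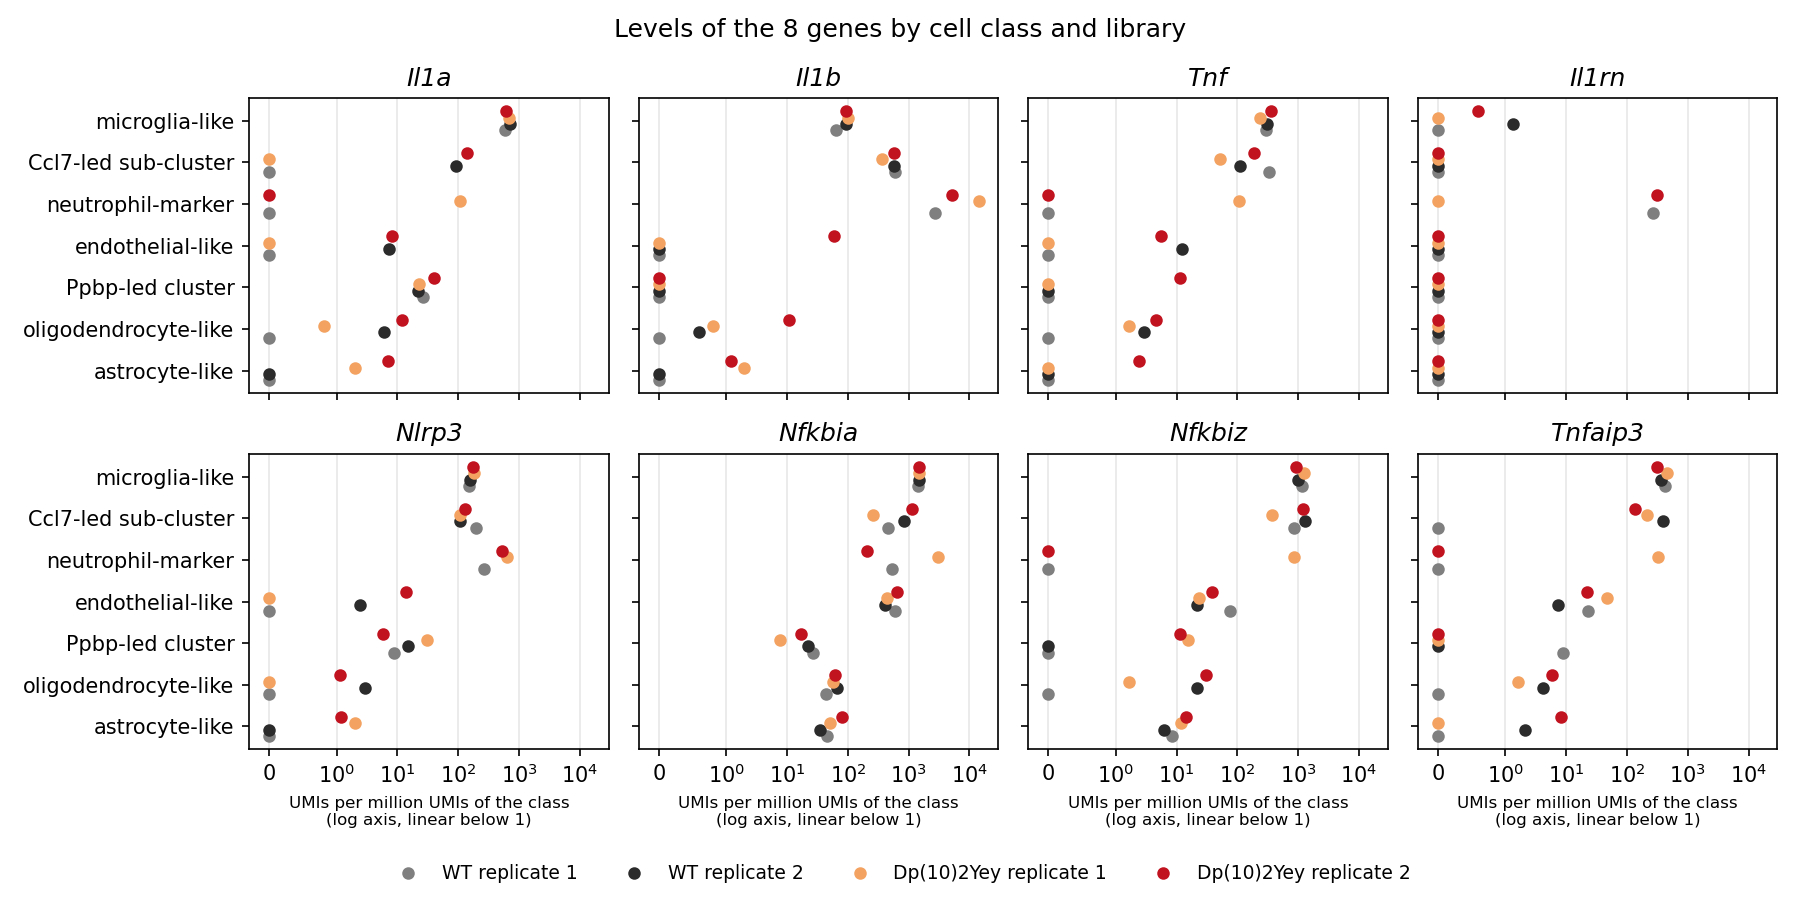
Level of each of the 8 genes (CPM of the class, log axis that is linear below 1) in 7 cell classes, with 1 point per library and no point where a library had no such barcodes. Il1b is highest in neutrophil-marker barcodes, Nfkbia is also high in endothelial-like cells, and the Ppbp-led cluster has lower means than microglia-like cells for all 8 genes.

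The higher Il1b in the sum of all cells came from several cell types, and their parts differed between the 2 Dp(10)2Yey mice. Il1b was 31.9 and 37.3 CPM in WT and 62.7 and 56.2 in Dp(10)2Yey (93, 251, 314 and 497 UMIs). Both Dp(10)2Yey libraries were above both WT libraries, with a log2 fold change of 0.76 (SE 0.16, n = 2 per genotype) by edgeR. Nlrp3 was the only other one of the 8 genes whose libraries did not overlap, at 60.7 and 55.3 CPM in WT and 64.7 and 72.4 in Dp(10)2Yey (log2 fold change 0.24, SE 0.14). Of all 13876 genes in that fit, 12.8% had both Dp(10)2Yey libraries above both WT libraries. The other members overlapped between genotypes, with log2 fold changes from -0.02 to 0.05.

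Barcodes were counted as neutrophil-marker barcodes when at least 1% of their UMIs came from a list of 15 neutrophil genes such as S100a8, S100a9 and Retnlg. There were 9 in all, 1 and 0 in WT and 4 in each Dp(10)2Yey library. The lowest neutrophil share among them was 2.46%, and the highest among the 6233 other barcodes was 0.455%. All 9 contained Il1b, from 2 to 53 UMIs each, and together they held 196 UMIs or 17% of the total. In WT replicate 1 they supplied 10 of the 93 Il1b UMIs (10.8%; 95% interval 5.28% to 18.9%, Clopper-Pearson). In Dp(10)2Yey mice they supplied 136 of 314 (43.3%; 37.8% to 49.0%) and 50 of 497 (10.1%; 7.56% to 13%). Dp(10)2Yey replicate 1 had by far the largest share, and the share of WT replicate 1 was close to that of Dp(10)2Yey replicate 2.

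Split by source, the difference between the genotype means of Il1b was 24.9 CPM of the library. Neutrophil-marker barcodes made up 14.7 of it (59.1%), microglia-like cells 6.48 (26.1%) and the Ccl7-led sub-cluster 1.36 (5.47%). These shares rest on single libraries. The neutrophil-marker part was 18.2% of the difference without Dp(10)2Yey replicate 1, below the 35.9% from microglia-like cells, and 90.6% without Dp(10)2Yey replicate 2. The microglial part was 11.8% without WT replicate 1. Single barcodes in Dp(10)2Yey replicate 2 accounted for most of the remainder, 1 in the endothelial-like cluster with 22 Il1b UMIs, which also held 8 of the 15 neutrophil genes (0.257% of its UMIs), and 1 in the oligodendrocyte-like cluster with 19, which was called as a doublet. The part from microglia-like cells was 24.7 and 32.4 CPM of the library in WT and 33.7 and 36.3 in Dp(10)2Yey. As CPM of the class, Il1b in these cells was 64.1 and 94.9 in WT and 99.5 and 94.2 in Dp(10)2Yey, which overlapped.

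**Figure D2:**
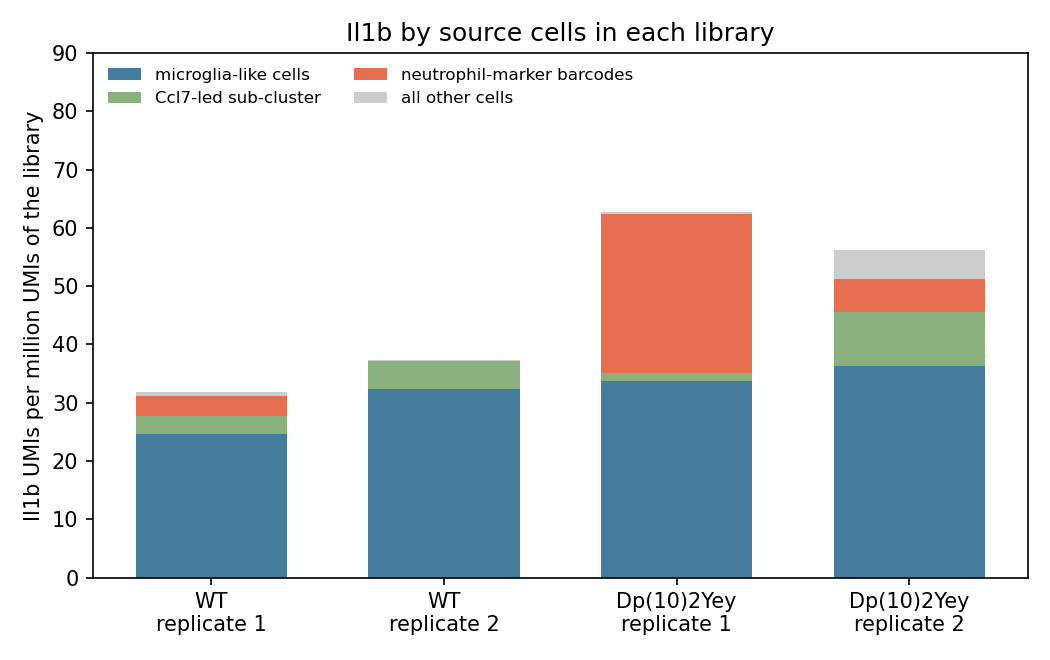
Il1b CPM of each library (bar height, from 0), divided by source cells. The neutrophil-marker part is 3.43 and 0 in WT and 27.2 and 5.66 in Dp(10)2Yey.

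Without the neutrophil-marker barcodes, a comparison chosen after seeing the data, Il1b was 28.5 and 37.3 CPM in WT and 35.6 and 50.6 in Dp(10)2Yey. The genotypes then overlapped, and the log2 fold change was 0.38 (SE 0.20). Nlrp3 kept both Dp(10)2Yey libraries above both WT libraries (log2 fold change 0.24), as did 13.9% of all 13864 genes. The summed neutrophil list had to move with these barcodes, since they were chosen on it. It was 235 and 103 CPM in WT (10 and 6 of 15 genes detected, Csf3r and G0s2 highest) and 467 and 418 in Dp(10)2Yey (12 and 15 of 15, S100a9 highest in both). Ly6g, Mmp8, Camp, Ngp and Ltf were at 0 in WT replicate 1, and in WT replicate 2 so were S100a8, S100a9, Retnlg and Wfdc21. Camp, Ngp and Ltf were at 0 in Dp(10)2Yey replicate 1. Without these barcodes the list stood at 142, 103, 115 and 122 CPM. The number of such barcodes, at most 4 a library, was too small to compare between genotypes.

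**Figure D3:**
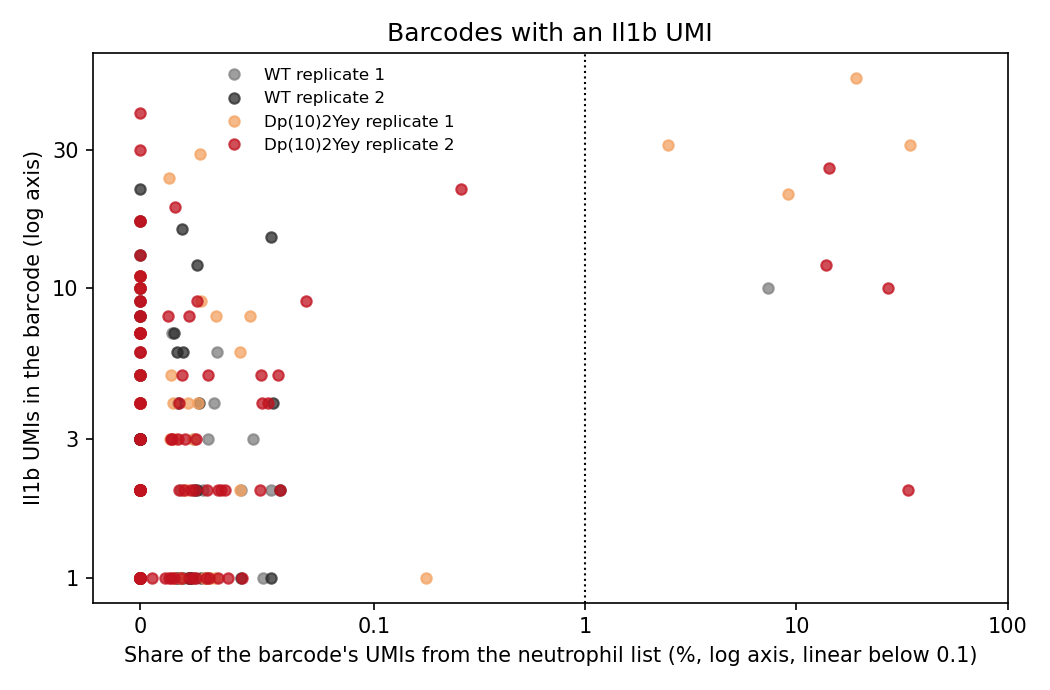
Il1b UMIs (log axis) against the share of UMIs from the neutrophil list (%, log axis that is linear below 0.1) in each of the 227 barcodes with an Il1b UMI, coloured by library. The dotted line marks the 1% limit, with 9 barcodes to its right, 8 of them from Dp(10)2Yey libraries.

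Il1b was concentrated in few barcodes in other cells too. Outside the neutrophil-marker barcodes, 24 barcodes with 10 or more Il1b UMIs held 400 UMIs, or 41.7% of the Il1b there. The Ccl7-led sub-cluster had 48 cells, and 15 of them held 129 Il1b UMIs (11.2%), up to 40 in 1 cell. Its Il1b level was 589 and 577 CPM in WT and 368 and 586 in Dp(10)2Yey, so the genotypes overlapped. Its leading genes joined macrophage genes (Pf4, Mrc1, Ms4a7) with MHC class II genes (H2-Aa, Cd74), so it was not given the name of a cell type. The feedback gene Nfkbia was present there as well, in 12 of the 15 Il1b-positive cells and in 31 of all 48 cells. Among the 9 neutrophil-marker barcodes, 6 held Nfkbia (33 UMIs) and 3 held Il1rn.

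Summed over microglia-like cells, the members were at similar levels in both genotypes. Nlrp3, the inflammasome sensor, was 152 and 156 CPM in WT and 180.2 and 176 in Dp(10)2Yey. After normalization it was the only one of the 7 tested genes with both Dp(10)2Yey libraries above both WT libraries, a pattern shared by 14.6% of all 9084 genes tested. Its log2 fold change was 0.19 (SE 0.14; adjusted p = 0.9998, edgeR's quasi-likelihood test with Benjamini-Hochberg adjustment). Il1b was 64.1 and 94.9 CPM in WT and 99.5 and 94.2 in Dp(10)2Yey. WT replicate 1 was low and the other 3 libraries were alike, so that the log2 fold change of 0.22 (SE 0.18) became -0.01 without WT replicate 1 and 0.59 without WT replicate 2.

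The other cytokines and the feedback genes overlapped between genotypes. Il1a ranged from 585 to 702 CPM, with the lowest and the highest value both in WT, and Tnf from 240 to 351, both in Dp(10)2Yey. Nfkbia was 1442 and 1463 in WT and 1468 and 1504 in Dp(10)2Yey, which overlapped after normalization. Nfkbiz ranged from 923 to 1231 and Tnfaip3 from 316 to 455, each lowest in Dp(10)2Yey replicate 2 and highest in Dp(10)2Yey replicate 1. The log2 fold changes were 0.00 for Il1a, -0.04 for Tnf, 0.01 for Nfkbia, -0.02 for Nfkbiz and -0.03 for Tnfaip3, with SE from 0.12 to 0.16, and their signs depended on single libraries. By edgeR's quasi-likelihood test with Benjamini-Hochberg adjustment 0 of these members passed an adjusted p of 0.01, at an unadjusted p of 0.05 also 0, and by DESeq2 0. Over all genes 1 of 9084 passed (0.011%), Hbb-bs, against 283 at an unadjusted p of 0.05 (3.12%) and 0 by DESeq2. The count was 19 and 11 without the first or the second WT library, and 0 and 9 without the first or the second Dp(10)2Yey library. With the replicate number as a block it was 26. Hbb-bs is a haemoglobin gene, and the 5 red blood cell genes summed to 29.4 and 47.0 CPM of microglia-like cells in WT against 357 and 129 in Dp(10)2Yey, with Hbb-bs highest in each library and only Alas2 at 0, in WT replicate 1. Their part in the values of the 8 genes was not tested.

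The share of microglia-like cells with Il1b was alike in the 4 libraries. It was 9.65% (30 of 311 cells; 95% interval 6.60% to 13.5%) and 9.48% (51 of 538; 7.14% to 12.3%) in WT. In Dp(10)2Yey mice it was 10.2% (38 of 373; 7.31% to 13.7%) and 9.44% (74 of 784; 7.48% to 11.7%). Median depths were 3636, 4179, 4419 and 4127.5 UMIs per cell. With all cells thinned to 1000 UMIs the shares were 4.05%, 4.70%, 4.66% and 4.76%. No difference in the positive share was detectable at this depth. As background, Il1b was found in 0 of 126, 0.321%, 0.448% and 0.324% of oligodendrocyte-like cells, which were deeper (median 4370.5 to 5049 UMIs). The count of 0 allows up to 2.38% of cells with a UMI (3 counts of the total).

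What varied more was the number of Il1b UMIs per positive cell. It averaged 2.40 and 4.27 in WT and 4.45 and 4.34 in Dp(10)2Yey. These averages were not corrected for depth, and microglia-like cells of WT replicate 1 were the shallowest (median 3636 UMIs). Cells with 5 or more Il1b UMIs numbered 4 and 16 in WT and 10 and 24 in Dp(10)2Yey. The 10 cells with most Il1b held 61.1%, 55.5%, 68.0% and 42.4% of the microglial Il1b UMIs, and the highest single cells had 7, 17, 29 and 30 UMIs.

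For the other members the thinned shares also overlapped, apart from Nlrp3. Nlrp3 was detected in 12.4% and 13.5% of WT cells and in 15.7% and 15.3% of Dp(10)2Yey cells. With 2 mice per genotype the two-sided exact permutation test cannot give a p below 0.33, so this difference could not pass that test. How many of all genes separate in thinned detection is not given here. For summed levels in these cells, 14.6% of 9084 genes had both Dp(10)2Yey libraries above both WT libraries. Nfkbia was detected in 56.0% to 58.2% of cells, Nfkbiz in 43.6% to 51.6%, Tnfaip3 in 21.9% to 29.2%, Il1a in 30.8% to 37.9% and Tnf in 14.7% to 18.7%. In oligodendrocyte-like cells at the same depth Nfkbia was detected in 4.6% to 5.86% and Nfkbiz in at most 1.01%. Il1rn was found in 4 of 2006 microglia-like cells.

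**Figure D4:**
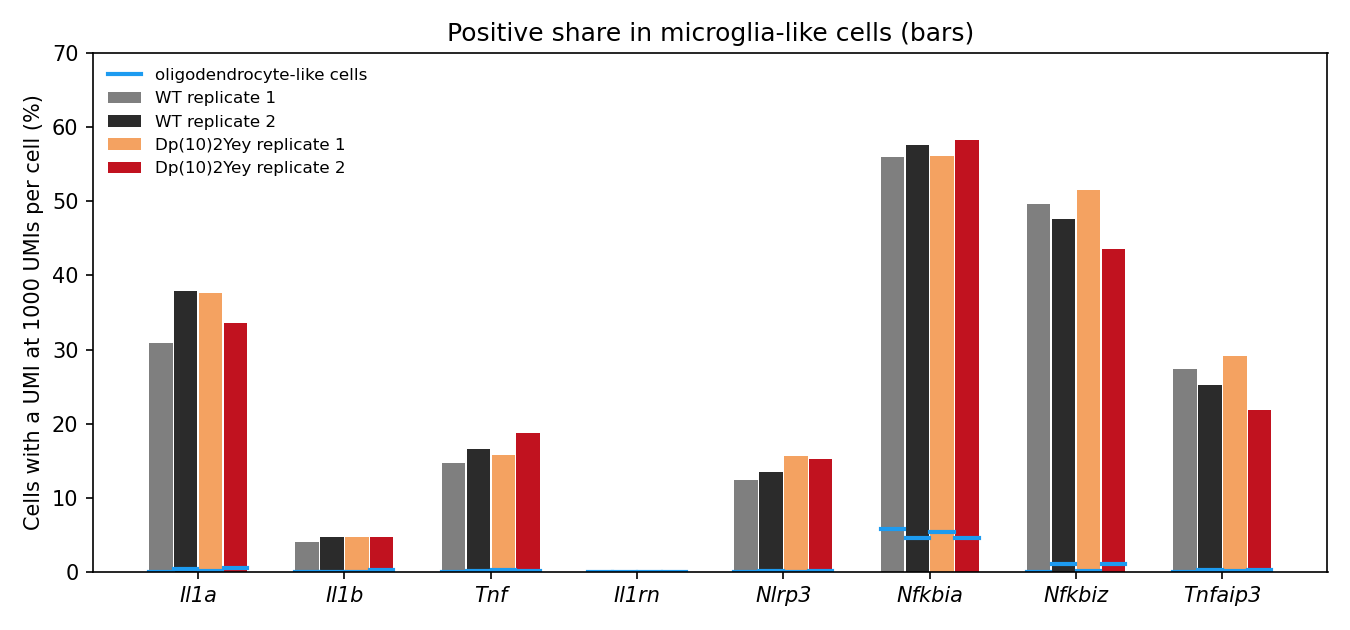
Percent of microglia-like cells with at least 1 UMI of each gene after thinning to 1000 UMIs per cell (bars from 0, 1 per library), with the same percent in oligodendrocyte-like cells as blue lines. Il1b lies between 4.05% and 4.76% in the 4 libraries, and for 7 of the genes the bars stand far above the blue lines.

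Microglia-like cells with Il1b carried the feedback genes more often than those without, in every library. Nfkbia was detected in 90% and 96.1% of the Il1b-positive cells in WT and in 94.7% and 95.9% in Dp(10)2Yey. Among Il1b-negative cells the shares were 73.3%, 79.5%, 78.8% and 78.3%. Il1b-positive cells were deeper, with median totals of 5501, 4942, 4924.5 and 5284 UMIs against 3476, 4120, 4325 and 4026.5, so the comparison was repeated at 1000 UMIs per cell.

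At that depth Nfkbia was detected in 76.5%, 68.1%, 70.2% and 76.3% of Il1b-positive cells against 55.1%, 57.1%, 55.5% and 57.3% of Il1b-negative cells, a mean difference of 16.5 percentage points (SD 4.6, n = 4 libraries). For Nfkbiz the shares were 70.8%, 68.8%, 74.6% and 62.4% against 48.7%, 46.6%, 50.4% and 42.7%, a mean difference of 22.1 points (SD 1.81). Tnfaip3 was found in 42.8%, 38.3%, 38.7% and 29.6% against 26.7%, 24.5%, 28.7% and 21.5%, a mean difference of 12 points (SD 3.58). All 3 feedback genes were thus detected more often in the Il1b-positive cells of all 4 libraries, as were 4.39% of all 9083 genes. This background, like the others given for Il1b-positive cells below, was not matched for the abundance of the genes. The size of the difference overlapped between genotypes for Nfkbia and Nfkbiz. For Tnfaip3 it was smaller in both Dp(10)2Yey libraries (10.0 and 8.16 points) than in both WT libraries (16.0 and 13.8), which a permutation test of 2 against 2 libraries cannot put below p = 0.33. How many of all genes separate by genotype in this way is not given here, so nothing particular to Tnfaip3 is read from it. All 3 together were detected, without thinning, in 83.3%, 70.6%, 71.1% and 62.2% of Il1b-positive cells and in 38.8%, 44.4%, 50.7% and 39.3% of Il1b-negative cells.

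**Figure D5:**
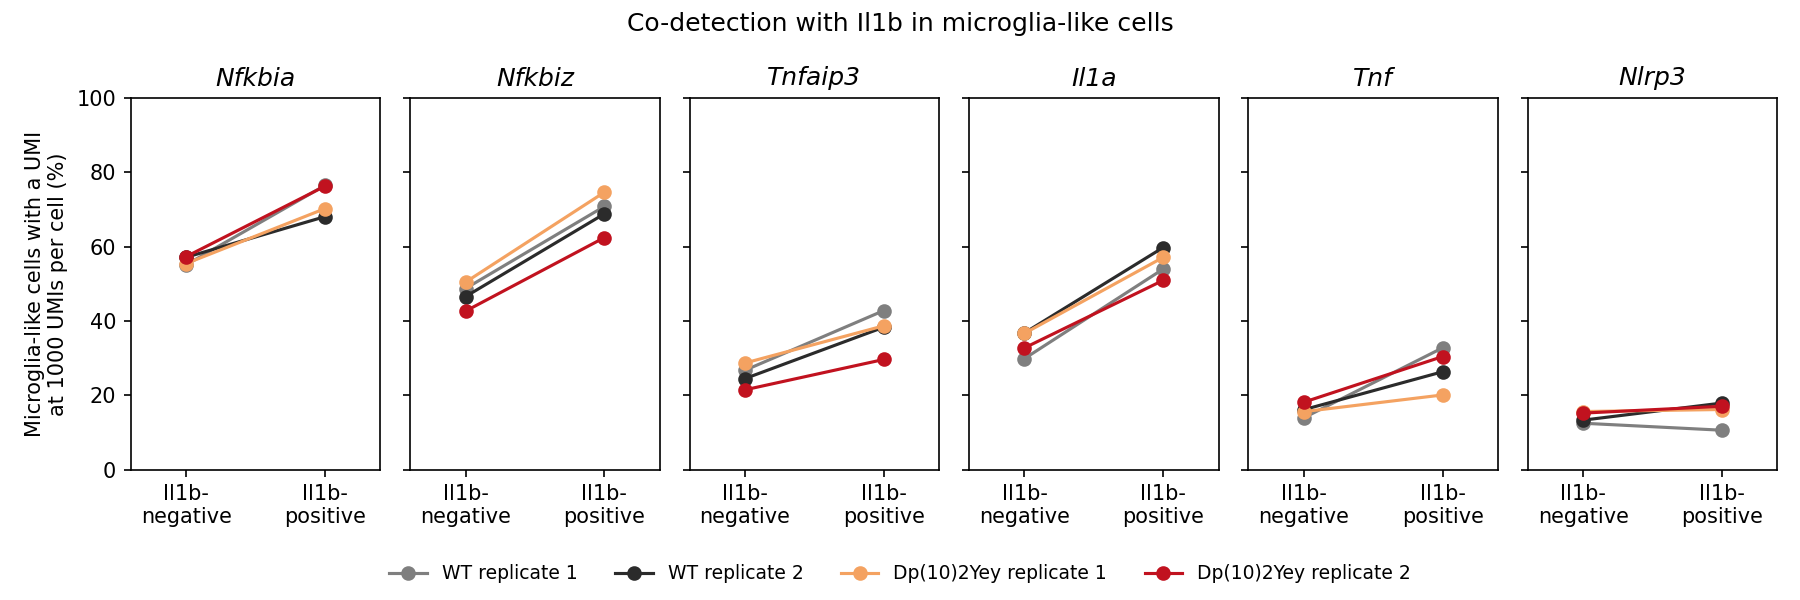
Percent of Il1b-negative and Il1b-positive microglia-like cells with a UMI of 6 genes after thinning to 1000 UMIs per cell, with 1 line per library. The lines of Nfkbia, Nfkbiz, Tnfaip3, Il1a and Tnf rise in all 4 libraries, and that of Nlrp3 in 3.

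Co-detection extended to the other cytokines and less to Nlrp3. Il1a was more frequent in Il1b-positive cells by 21.4 percentage points on average (SD 2.65) and Tnf by 11.4 (SD 5.91), both in 4 of 4 libraries (4.39% of all genes). Nlrp3 differed by 1.28 points (SD 2.70), less than the spread between libraries. The mean log2 ratio of the level in Il1b-positive to that in Il1b-negative cells was 0.54 for Nfkbia (SD 0.28), 0.55 for Nfkbiz (SD 0.14), 0.52 for Tnfaip3 (SD 0.11) and 0.85 for Il1a (SD 0.23), each above 0 in all 4 libraries, as for 5.13% of all genes. Level and detection did not always go together. Tnf averaged 1.01 (SD 0.74), but was -0.05 in Dp(10)2Yey replicate 1, and Nlrp3 (0.22, SD 0.17) was higher in level but not in detection in WT replicate 1 and the reverse in Dp(10)2Yey replicate 2. The 19 microglia markers had a median log2 ratio of -0.24, and 13 of them were lower in Il1b-positive cells in all 4 libraries (15% of all genes), P2ry13 the most (-0.55), while Ctss was higher in all 4 (0.07). Il1rn, the secreted antagonist, was seen in 2 of 51 Il1b-positive cells of WT replicate 2, in 1 of 74 of Dp(10)2Yey replicate 2 and in none of the other 2 libraries.

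Il1b was unevenly spread among microglia-like cells. At a clustering resolution of 0.5 they fell into 3 clusters, and the one led by Spp1, Lpl, Cxcl2, Lgals3 and Gadd45b (452 of the 2006 cells) held 60.4% of the microglial Il1b UMIs, 56.8% of those of Tnf and 5 of 5 of those of Il1rn. Its Il1b level ranged from 164 to 224 CPM over the 4 libraries (mean 190.1). In the cluster led by Klf4 (1088 cells) it ranged from 24.9 to 85.0 and in the cluster led by Hspa1b and Ifitm3 (466 cells) from 0 to 47.4, so these overlapped with each other, and WT replicate 1 was lower in the former. Nfkbia had means of 2340, 1337 and 447 CPM in the 3 clusters and Nfkbiz of 1543, 1128 and 175, each with no overlap of libraries. Tnfaip3 (510.1, 418 and 83.5) overlapped in the first pair. Nlrp3 was nearly the same in the first pair of clusters (189 and 187) and lower in the third (72.2). Of the Il1b-positive microglia-like cells, 20 of 30, 27 of 51, 20 of 38 and 40 of 74 lay in the Spp1-led cluster. Co-detection was not examined within the 3 clusters, so it was not separated from cluster membership. The Spp1-led cluster made up 18.6% and 21.7% of microglia-like cells in WT and 27.9% and 22.1% in Dp(10)2Yey, and the Klf4-led cluster 59.5% and 57.4% against 54.7% and 49.7%, both without overlap. The third overlapped (21.9% and 20.8% against 17.4% and 28.2%). These shares were not tested, and a permutation test of 2 against 2 libraries cannot put them below p = 0.33. Shares within a library depend on each other, and the Spp1-led shares of 21.7% and 22.1% were nearly the same.

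The genes most like Il1b over 44 sums of a cluster in a library (11 clusters, 4 libraries) were Rnase6 (Pearson's r 0.925), Gm26522 (0.917), Cxcl2 (0.914), Gm31243 (0.910) and Gpr160 (0.903). Over single microglia-like cells within a library the closest of 6815 genes were Gadd45b (mean r 0.191), Il1a (0.185), Cd83 (0.182), Gpr84 (0.175) and Cd74 (0.173), all weak. For Nfkbia the genes over sums were Gm26532 (0.924), Atf3 (0.918), Zfp36 (0.916), Dusp1 (0.905) and Btg2 (0.901). Over single cells they were Nfkbiz (0.507), Egr1 (0.480), Fos (0.479), Junb (0.463) and Zfp36 (0.453), so another of the 8 genes ranked first. Points share libraries and cells share depth, so these values are descriptions.

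The rest of the pathway was also compared between the genotypes in microglia-like cells. Of 6 lists, 0 genes passed an adjusted p of 0.01 by edgeR's quasi-likelihood test with Benjamini-Hochberg adjustment, and 0 by DESeq2. At an unadjusted p of 0.05 it was 4 of the 75 listed genes tested (5.33%), against 3.12% of all genes. All 4 were lower in Dp(10)2Yey, and 2 of them were dissociation genes. Of all genes, 1.57% were lower at that p. Median log2 fold changes were -0.02 for receptors and adaptors (14 of 17 genes tested), -0.03 for NF-kB subunits and IkB kinases (8 of 8), 0.07 for other feedback inhibitors (14 of 16), -0.09 for inflammasome genes (8 of 9), -0.17 for NF-kB target genes (15 of 18) and -0.01 for genes of the dissociation response (16 of 16). The median of all 9084 genes was 0.00, and that of the 7 tested members 0.00. The count of listed genes past the threshold was 2 without WT replicate 1 (Cxcl2 and Cxcl10, both lower in Dp(10)2Yey) and 3 without WT replicate 2 (Hspa1a, Hspa1b and Cxcl2, the last of them higher).

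Of the 75 listed genes tested, 6 had both Dp(10)2Yey libraries above both WT libraries (8.0%, against 14.6% of all genes) and 16 had both below (21.3%, against 15.2%). Among these, the largest differences in receptors and adaptors were those of Traf2, an adaptor of TNF receptors (log2 fold change 0.57), Ripk1 (-0.34) and Irak1 (-0.28), kinases of the TNF and interleukin-1 pathways. They were -0.28 for the IkB kinase Chuk, 0.27 for the NF-kB subunit Rel and -0.08 for Nfkb1. Among the other inhibitors they were -0.28 for the phosphatase Dusp1, 0.25 for Tnip2, a partner of A20, and -0.18 for Socs3. The inflammasome genes were Gsdmd, which forms the pore that releases interleukin-1 beta (0.33), Casp1 (-0.26) and Casp4 (-0.23). Of the targets they were -0.33 for Tlr2, -0.33 for Cxcl16 and -0.17 for Ccl4, and of the dissociation genes -0.45 for Klf2, -0.16 for Fos and 0.09 for Atf3. None of these passed the test in this fit. With the replicate number as a block, 3 listed genes passed by edgeR, Klf2 (log2 fold change -0.43, adjusted p = 0.00815), Hspa1a (-0.59, 0.00154) and Hspa1b (-1.17, 3.53e-11).

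Of the listed NF-kB targets, which exclude the 8 genes, 11 of 15 genes tested were higher in the Il1b-positive cells of all 4 libraries. The share of all 9083 genes was 5.13%, not matched for abundance. The list summed to 14689, 12393, 13026 and 11694 CPM in Il1b-positive microglia-like cells against 7359, 7952, 7182 and 7137 in Il1b-negative ones. Ccl4 was its most abundant gene, and without Ccl4 the sums were 6866, 6712, 6217 and 5236 against 3242, 3521, 3408 and 3260. Of the other feedback inhibitors 1 of 14 (Ier3) was higher in all 4 libraries, and their sums were 6683, 6373, 6389 and 7185 in Il1b-positive against 6617, 6671, 6275 and 6362 in Il1b-negative cells. It was 0 of 14 receptors and adaptors, 0 of 8 NF-kB subunits and kinases, and 2 of 8 inflammasome genes (Casp1 and Casp4). Of the dissociation genes 2 of 16 were higher and 6 lower in all 4 libraries, against 15% of all genes lower. That list summed to 40194, 40465, 38127 and 45355 in Il1b-positive and to 43217, 42716, 39458 and 45621 in Il1b-negative cells, slightly lower in each library. Without Jun, its most abundant gene, it was higher in the Il1b-positive cells of Dp(10)2Yey replicate 2 (38457 against 37439) and lower in those of the other 3 libraries.

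Outside microglia the feedback gene Nfkbia had enough UMIs for a test in 7 other clusters. In immature-neuron-like cells it had 4 and 7 UMIs in WT and 38 and 75 in Dp(10)2Yey (log2 fold change 2.53, SE 0.38; adjusted p = 0.0125, edgeR's quasi-likelihood test with Benjamini-Hochberg adjustment), which did not pass 0.01. In that cluster 2 of 3480 genes passed 0.01 (0.0575%), and 15.7% had both Dp(10)2Yey libraries above both WT libraries. Single barcodes held 33 of the 38 UMIs of Dp(10)2Yey replicate 1 and 40 of the 75 UMIs of Dp(10)2Yey replicate 2. In endothelial-like cells Nfkbia was 592 and 413 CPM in WT and 440 and 640.4 in Dp(10)2Yey, which overlapped (log2 fold change 0.13, SE 0.26). The genotypes did not overlap in astrocyte-like cells (0.76, SE 0.35; both Dp(10)2Yey libraries above, as for 16.3% of genes there), in the cluster led by S100a9 (0.76, SE 0.54; above, 16.7%) and in ependymal-like cells (-0.95, SE 0.42; below, 15.4%), with adjusted p of 0.999 each. Of the 67 Nfkbia UMIs in astrocyte-like cells of Dp(10)2Yey replicate 2, 20 lay in 1 barcode. Of the 21 in ependymal-like cells of WT replicate 2, 10 lay in 1 barcode. Levels were also taken without barcodes in which at least 0.5% of UMIs came from microglia markers, a choice made after seeing the data. Nfkbia was then 38.3, 32.8, 29.8 and 165 CPM in immature-neuron-like cells, which overlapped. It was 47.2, 33.1, 52.1 and 38.9 CPM in astrocyte-like cells, which overlapped, and 93.1, 136, 69.6 and 60.9 in ependymal-like cells, which did not. The cluster led by S100a9 joins the Ccl7-led sub-cluster with neutrophil-marker barcodes, which held 29 of its 36 Nfkbia UMIs in Dp(10)2Yey replicate 1. Within the Ccl7-led sub-cluster Nfkbia was 458, 848, 263 and 1129 CPM, which overlapped. They overlapped in oligodendrocyte precursor-like (1.10, SE 0.53) and oligodendrocyte-like cells (0.01, SE 0.23). Nfkbiz was tested in 3 of these clusters and its genotypes overlapped in each.

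With 2 mice per genotype, and intervals that cover counting error only, differences of the size seen here for Nlrp3 could not be told from the spread between mice. Il1rn was too sparse for any comparison.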

How the data were processed

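The authors' files hold raw counts (UMIs per gene) for the barcodes that Cell Ranger 3.0.2 called as cells in each library, on a custom mm10 (GRCm38) reference and without normalization. Empty barcodes were not used here, so free RNA was not estimated. Barcodes with at least 200 genes were kept. Barcodes with over 10.0% globin UMIs (39) were removed in place of the study's red blood cell clusters. Cells were clustered in Seurat 5.3.0 (2000 variable genes without the 8 members, integration by canonical correlation analysis, 50 dimensions, resolution 0.2), and a cluster took a cell type name only from at least 3 listed markers among its 10 leading genes (9 of 14 clusters). Scrublet in scanpy 1.11.5 called 42 doublets (0.673%), which were kept.

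UMIs were summed per library and tested with edgeR 4.0.16 (TMM, filterByExpr, quasi-likelihood, two-sided, Benjamini-Hochberg over all genes tested). The threshold of 0.01 is the study's. The fit was tested on simulated data, but the outcome is not given here. DESeq2 1.42.0, other normalization, filters, clusterings, depths and each library left out were alternatives. Shares at 1000 UMIs are the expected values of random thinning without replacement, and cells under 1000 UMIs were left out (33, 21, 8 and 16 microglia-like cells). Intervals are exact binomial (95%).

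Named were the 8 members. Of each of 6 pathway lists, genes past the threshold and the 3 largest changes among genes whose genotypes did not overlap were also named, as were the 5 genes most like Il1b and Nfkbia. The members and lists were chosen with earlier results of these data known. The neutrophil rule, the 3 microglial clusters at resolution 0.5, single barcodes and the genes called when a library was left out were picked out after seeing the data.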

Additional observations from a re-analysis of the deposited data

Results flagged for a closer look

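The genotype difference of Nfkbia and of Il1a was not the same in immature-neuron-like cells as in microglia-like cells, by edgeR's quasi-likelihood test of the interaction with library as a block (adjusted p = 0.00317 for each, Benjamini-Hochberg; log2 difference 2.53 for Nfkbia). These were 2 of 60 pairs of 6 genes and 10 clusters with an adjusted p under 0.05. Over all genes it was 0.0943% of 91218 such tests, and 0.231% of the 9525 in immature-neuron-like cells. Nfkbia had 4 and 7 UMIs in WT and 38 and 75 in Dp(10)2Yey immature-neuron-like cells, and Il1a had 0 and 0 against 28 and 4. In Dp(10)2Yey replicate 1, 1 barcode held all 28 Il1a UMIs and 33 of the 38 Nfkbia UMIs, and at least 0.5% of its UMIs came from microglia markers. Without such barcodes, an alternative chosen after seeing the data, Nfkbia had 4, 7, 5 and 59 UMIs, of which 1 barcode held 40, and Il1a had 0, 0, 0 and 1. The adjusted p was then 1.0 for both genes, and the log2 difference of Nfkbia 1.65. That of Il1a is not given, since it had no UMI in WT.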

How the results depend on the processing

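The log2 fold change of Il1b in the sum of all cells, on which the group was selected, was 0.66 to 0.90 without single libraries, 0.76 with the replicate number as a block, and 0.38 without neutrophil-marker barcodes. Without them microglia-like cells held 86.7% of the Il1b UMIs in the first WT mouse, 94.9% in the first Dp(10)2Yey mouse and 71.8% in the second. The part of the Il1b difference in neutrophil-marker barcodes was 18.2% and 90.6% without the first and the second Dp(10)2Yey library, and that in microglia-like cells 11.8% and 37.5% without the first and the second WT library. In microglia-like cells, log2 fold changes without single libraries ran from -0.14 to 0.17 for Il1a, -0.011 to 0.59 for Il1b, -0.35 to 0.20 for Tnf, -0.014 to 0.044 for Nfkbia, -0.25 to 0.17 for Nfkbiz and -0.31 to 0.22 for Tnfaip3. Nlrp3 stayed above 0 (0.15 to 0.23).

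In microglia-like cells 1 gene passed the threshold, against 0 with DESeq2, 21 with no filter on low counts, 7 at 0.05, 0 with the members among the clustering genes, 0 without integration and 0 to 19 without single libraries. With the replicate number as a block it was 26 genes, and 3 of the pathway lists (Klf2, Hspa1a and Hspa1b). Same-numbered libraries deviated together only weakly (correlation 0.186 in microglia-like cells, 0.0185 in all cells). These correlations do not settle which libraries share a day. The reported fit had no block, so any pairing by day was left out of it. Of the pathway lists 0 genes passed in the reported fit, 1 with no filter (Hspa1b) and 0 to 3 without single libraries. In all cells summed 0 genes passed, 3 with DESeq2, 72 with no filter and 1 to 12 without single libraries. When a library is left out, its genotype has 1 library, which is assumed to vary like the others. The cause of these shifts was not tested.

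Detection followed depth by construction. The Il1b-positive share of the 4 libraries was 7.45%, 6.96%, 6.97% and 6.93% at 2000 UMIs, and 9.65%, 9.48%, 10.2% and 9.44% without thinning. Nfkbia among Il1b-positive cells was 84.6%, 87.4%, 86.0% and 90.7% at 2000 UMIs, and 90%, 96.1%, 94.7% and 95.9% without thinning. Clustering, doublets and the mitochondrial filter moved neither share beyond its interval.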
